A study of Mus musculus with 38 samples.

Results

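Collagens and laminins are the main structural chains of the extracellular matrix. In these mouse testis arrays 50 genes carried a collagen or laminin chain symbol (Col followed by a number, an a and a number, or Lama, Lamb or Lamc followed by a number), and 48 of them had at least 1 probe above an intensity of 102, the level taken as background, on 2 or more arrays. The 48 chains, of 15201 genes measured in all, were 11 fibrillar collagens, 15 basement membrane chains and 22 other collagens. Col10a1 and Col6a6 were above background on 0 arrays and were left out. Col19a1 lay just inside the rule, with 2 arrays above background, and 30 of the 48 chains were above background on all 38 arrays.

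The LuRKO mouse lacks the luteinising hormone receptor, through which the pituitary drives testosterone synthesis in Leydig cells. RNA of whole testes was measured on single-colour bead arrays, each with RNA pooled from 2 animals. The groups were untreated LuRKO testes at 5 ages after birth (day 3, day 8, day 13, day 19 and day 27, with birth as day 1), and untreated WT testes at the same ages. LuRKO mice given a single intraperitoneal injection of testosterone propionate on day 19 were taken 2, 4, 8, 12, 24 and 48 h after 2.5 mg, or 24 h after vehicle, 250 ng, 2.5 µg or 25 µg. Of these 20 groups 18 had 2 arrays, while day 27 LuRKO and the 24 h group after 2.5 mg had 1 each. No WT mouse was injected, and every injected animal, the vehicle group included, carried the LuRKO genotype. The label of 1 vehicle array gives another number of hours as its age than its title, which was followed.

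Fibrillar collagens (types I, II, III, V, XI, XXIV and XXVII) assemble from trimers of alpha chains into the fibres that give tissue its tensile strength. Basement membranes are thin sheets in which a type IV collagen network and a laminin network, each laminin a trimer of 1 alpha, 1 beta and 1 gamma chain, underlie epithelia and surround muscle, fat and nerve. In the testis Sertoli cells and the peritubular myoid cells around each tubule build the basement membrane together, and interstitial fibroblasts and vessel walls carry most of the fibrillar collagen. The other collagens include the type VI microfibrils, fibril-associated chains, transmembrane chains and the multiplexins Col15a1 and Col18a1, which sit in basement membranes and carry large sugar chains. Levels below are log2 intensities after background correction, on which 6.62 is the background threshold, and differences are log2 differences with their standard error. A difference was called at an adjusted p under 0.05 in the limma fit across all 15201 genes. A different probe has a different brightness, so levels are compared within a gene only. Whole testis RNA cannot tell fewer cells of a type from less RNA per cell. The arrays were also normalized to share 1 distribution, so a level is relative to the other RNA of the testis. A lower level therefore need not mean less RNA of a chain per testis or per cell.

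Most chains were high in the newborn testis and fell as it matured. Between day 27 and day 3 in WT testes, 32 chains were lower and 6 were higher at day 27, where 73% of all genes were called, 28.7% higher and 44.3% lower. The median chain differed by -1.43 and the median of all genes by -0.18. Of the 48 chains 28 had their highest WT group mean at day 3 and 31 their lowest at day 27, against 26.7% and 47.5% of all genes. In LuRKO testes 31 chains were lower and 5 higher at day 27 than at day 3, with 59.3% of all genes called. Of these chains 31 were called in both genotypes (86.1% of the LuRKO calls and 81.6% of the WT calls), with 27 lower in both, 3 higher in both and Col24a1 in opposite directions. The same shares over all genes were 86.8% and 70.5%.

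Among fibrillar collagens, 6 of 11 were lower (54.5%) and 1 was higher (9.09%) in WT testes at day 27, beside 44.3% and 28.7% of all genes. Col5a2, a chain of the type V collagen that sets the width of type I fibrils, had 6.76 and 6.78 at day 27 and 10.71 and 10.60 at day 3. The groups were far apart, and the difference of -3.89 ± 0.16 (14.8-fold lower, adjusted p = 4.64e-19) was larger in size than that of any other chain. Col1a2, which joins Col1a1 in the type I heterotrimer, had 9.72 and 9.74 at day 27 and 13.06 and 13.16 at day 3, a difference of -3.38 ± 0.29. Col1a1 had 10.08 and 9.43 at day 27 and 12.62 and 12.96 at day 3 (-3.04 ± 0.21). Col3a1, the type III chain of reticular fibres, had 11.26 and 11.14 at day 27 and 13.62 and 13.73 at day 3 (-2.48 ± 0.19), and its other probe differed by -2.39. The WT group means of these 4 genes fell at each step from day 3 on, and at no gene did the day 27 and day 3 arrays overlap. Col5a1 and Col24a1 were also lower, by -2.42 ± 0.13 and -0.82 ± 0.19. Col2a1, the chain of cartilage collagen, ran the other way, with 8.86 and 8.60 at day 27 against 6.45 and 6.17, below background, at day 3. It was at least 4.31-fold higher (adjusted p = 2.36e-13), and its other probes differed by 1.95 and 1.31. Col11a1, Col11a2, Col5a3 and Col27a1 stayed between 6.24 and 7.24 on all arrays, close to background, and none was called in WT testes.

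The promoters of Col1a2 and Col3a1 are shown because these fibrillar chains fell together with age and differed together between the 2 control groups described further on. Each line gives the 250 bases before the annotated start in RefSeq's GRCm38.p6 tables, 5′ to 3′ on the gene's strand, with the motifs GGGCGG (the core of a GC box), CCAAT and TATAAA, and the steroid receptor half-site AGAACA, in capitals wherever either strand holds them. Col1a2 lies on chromosome 6, plus strand, chr6:4505368-4505617, and Col3a1 on chromosome 1, plus strand, chr1:45311288-45311537.
Col1a2: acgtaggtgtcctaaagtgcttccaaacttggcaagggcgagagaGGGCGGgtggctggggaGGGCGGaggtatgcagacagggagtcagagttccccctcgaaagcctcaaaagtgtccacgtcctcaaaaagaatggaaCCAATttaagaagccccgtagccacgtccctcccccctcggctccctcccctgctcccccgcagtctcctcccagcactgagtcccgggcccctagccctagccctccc
Col3a1: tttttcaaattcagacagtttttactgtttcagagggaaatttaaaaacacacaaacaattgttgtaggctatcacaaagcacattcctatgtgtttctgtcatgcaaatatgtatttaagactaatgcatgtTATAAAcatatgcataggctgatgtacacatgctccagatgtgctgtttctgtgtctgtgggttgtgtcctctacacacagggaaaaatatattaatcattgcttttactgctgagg
The Col1a2 window holds 2 GGGCGG and 1 CCAAT and has 62.0% G and C, while the Col3a1 window holds 1 TATAAA and has 35.2% G and C. Neither holds AGAACA. Over all 32851 windows of this length, 32.7% hold GGGCGG, 33.8% CCAAT, 12.4% TATAAA and 16.1% AGAACA. The table matched 36 of the 48 chains with 40 windows, of which 57.5% hold GGGCGG, 35% CCAAT, 10% TATAAA and 5% AGAACA.

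The basement membrane chains were the most uniform type over age. In WT testes 13 of 15 were lower at day 27 (86.7%) and 1 was higher (6.67%), beside 44.3% and 28.7% of all genes. Lamb1, the beta chain of the laminin found in most early basement membranes, had 7.40 and 7.86 at day 27 and 10.85 and 11.06 at day 3 (-3.32 ± 0.21, adjusted p = 7.76e-15). Lamc1, the gamma chain shared by most laminins, had 8.55 and 8.75 at day 27 and 11.47 and 11.69 at day 3 (-2.93 ± 0.12). Lama1, the alpha chain of the laminin of tubule basement membranes, had 8.77 and 9.10 at day 27 and 10.99 and 11.07 at day 3 (-2.09 ± 0.14). None of these groups overlapped, and in each gene most of the drop came after day 13.
Col4a1 and Col4a2, the chains of the type IV network present in almost all basement membranes, fell in parallel. Col4a1 had 10.93 and 10.85 at day 27 and 13.63 and 14.05 at day 3 (-2.95 ± 0.14). Col4a2 had 9.93 and 9.64 at day 27 and 12.52 and 12.62 at day 3 (-2.78 ± 0.13). The 2 genes lie head to head on chromosome 8 with annotated starts 21 bases apart, at 11312826 for Col4a1 and 11312805 for Col4a2 in GRCm38.p6.
Col4a5 and Col4a6, another head-to-head pair with starts 1343 bases apart on chromosome X, differed by -2.18 ± 0.17 and -0.94 ± 0.13. Col4a4 differed by -1.89 ± 0.19 and Col4a3, its partner in the network of the kidney and testis, by -0.80 ± 0.18. Col4a3 had 8.12 and 8.29 at day 27 and 8.86 and 9.15 at day 3, with its highest WT group mean at day 8.
Lama2, the alpha chain of muscle-type laminins, had 8.29 and 8.54 at day 27 and 10.76 and 10.69 at day 3 (-2.32 ± 0.15). Lamc3 differed by -1.79 ± 0.13, Lamb2, which replaces Lamb1 in many mature basement membranes, by -0.98 ± 0.14, and Lama5 by -0.61 ± 0.18. Lamb2 was higher at day 8 than at day 3 (0.43 ± 0.14) and at day 13 than at day 8 (0.49 ± 0.14) before it fell. Lamb3, a chain of the laminin that anchors skin epithelium, was higher at day 27, with 8.85 and 8.45 against 7.08 and 6.65 at day 3 (1.79 ± 0.15), after 6.14 and 6.13 at day 13. Lama4 stayed between 6.30 and 6.97 on all arrays.

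The start of Lamb1, the basement membrane chain that fell most in WT testes, lies on chromosome 12, plus strand, and the window before it is chr12:31265043-31265292.
Lamb1: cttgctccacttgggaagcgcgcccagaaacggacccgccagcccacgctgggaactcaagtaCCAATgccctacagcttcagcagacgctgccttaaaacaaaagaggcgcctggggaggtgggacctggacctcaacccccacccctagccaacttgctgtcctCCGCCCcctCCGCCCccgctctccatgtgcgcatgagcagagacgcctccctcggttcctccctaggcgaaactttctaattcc
It holds 2 GGGCGG on the other strand and 1 CCAAT, and neither TATAAA nor AGAACA.

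Of the 22 other collagens, 13 were lower (59.1%) and 4 higher (18.2%) in WT testes at day 27, beside 44.3% and 28.7% of all genes. Col6a2, a chain of the type VI microfibril, had 8.37 and 8.15 at day 27 and 11.75 and 11.89 at day 3, a difference of -3.56 ± 0.13 (11.8-fold lower, adjusted p = 3.67e-20). Its partner Col6a1 had 11.34 and 11.20 at day 27 and 14.05 and 14.20 at day 3 (-2.85 ± 0.12). Col8a2, Col9a2, Col15a1, Col23a1, Col14a1, Col26a1 and Col18a1 were lower by between -3.00 and -1.96, and Col13a1, below background at day 27, was at least 2.71-fold lower. The other probes of Col26a1 and Col14a1 were at -0.21 and -0.50, while those of Col8a2, Col18a1 and Col23a1 lay between -2.96 and -1.02. Col17a1, Col22a1 and Col7a1 differed by less, between -1.06 and -0.64. The chain that rose most was Col9a3, a fibril-associated chain known from cartilage, with 13.89 and 13.82 at day 27 against 10.36 and 11.00 at day 3 (3.17 ± 0.15, 9.01-fold higher). It rose at each step up to day 19. Col16a1, a fibril-associated chain, was lower at day 8 than day 3 and higher at day 19 than day 13 (1.18 ± 0.14), with no call between day 27 and day 3. Col6a4 was higher at day 27 by 0.49 ± 0.13. Col19a1 and Col28a1, below background at day 3 and just above it at day 27, were at least 1.03-fold and 1.04-fold higher.

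**Figure D1:**
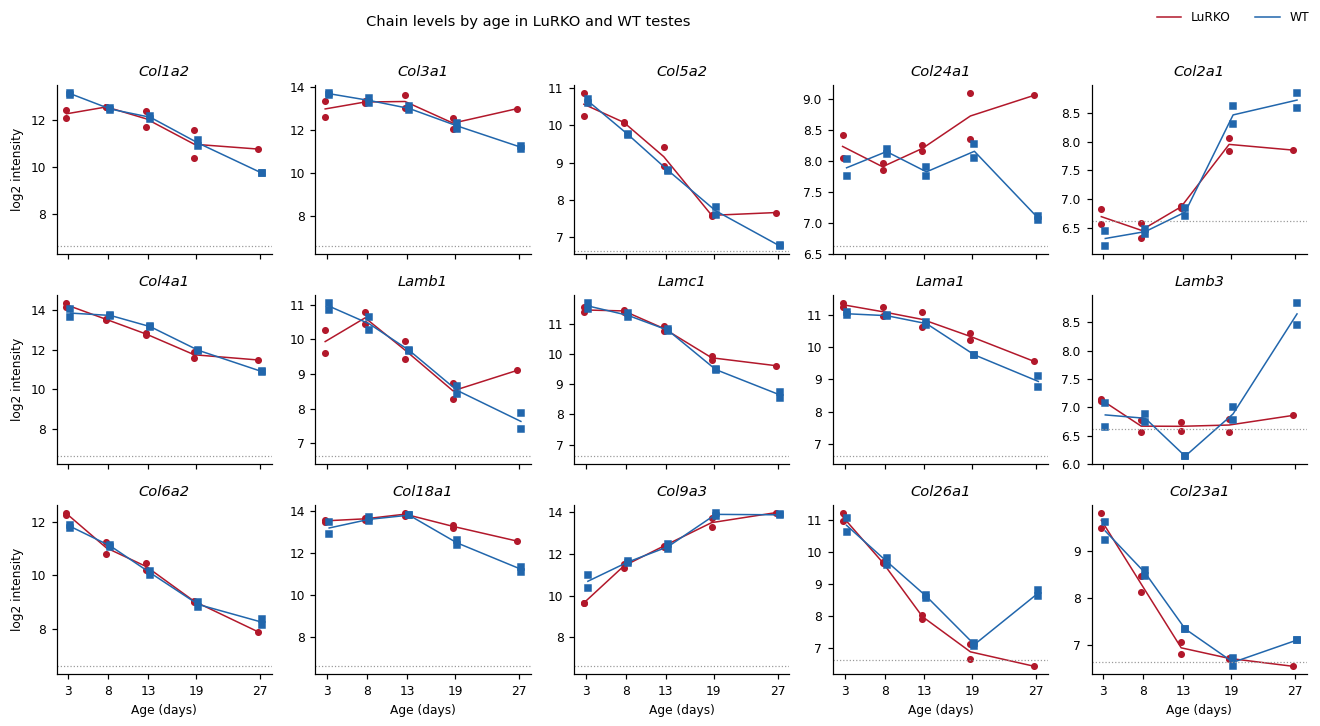
Log2 intensity (vertical axes, each with its own range) of 15 chains against age in days, with LuRKO arrays as red circles and WT arrays as blue squares, lines through group means and the background threshold of 6.62 dotted. Most chains fell from day 3 on in both genotypes, Col9a3 rose in both, and at day 27 the single LuRKO array lay above both WT arrays for Col24a1, Col3a1, Lamb1 and Col18a1 and below them for Lamb3 and Col26a1.

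The steps between ages show when the WT fall occurred. Between day 8 and day 3, 10 chains were lower and 4 higher at day 8 (17.7% of all genes called), with Col26a1 (-1.12 ± 0.18), Col23a1 and Col5a2 lowest and Col22a1 (1.00 ± 0.15), Col9a3, Lama5 and Lamb2 higher. At day 13 against day 8, 21 were lower and 3 higher (28.1% of all genes called). At day 19 against day 13, 27 were lower and 5 higher (56.6% of all genes called), the most chains of any step. At day 27 against day 19, 25 were lower and 5 higher (51% of all genes called). Col18a1 was not yet lower at day 13, with 13.79 and 13.81 against 12.90 and 13.48 at day 3, and had 12.61 and 12.36 at day 19 and 11.11 and 11.36 at day 27. Col26a1 and Lamb3 turned upward at the last step, by 1.62 ± 0.18 and 1.77 ± 0.15.

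Genes that fold, cross-link, cut or bind these chains were mostly lower as well, beside 44.3% of all genes. In WT testes at day 27 against day 3, 20 of 24 measured folding and crosslinking genes were lower and 2 higher, led by the collagen chaperone Serpinh1 (-3.73 ± 0.14) and the crosslinking enzyme Lox (-3.77 ± 0.14). Of 16 matrix degradation genes 13 were lower and 0 higher, with the gelatinase Mmp2 at -4.48 ± 0.16. Of 14 receptors 12 were lower and 1 higher, with the hyaluronan receptor Cd44 at -3.40 ± 0.16 and the laminin receptor Dag1 at -2.50 ± 0.14. Of 11 basement membrane partners 9 were lower and 1 higher, with perlecan, Hspg2, at -2.80 ± 0.12 and nidogen 1, Nid1, at -2.65 ± 0.14.
Markers of cell types also differed between these ages, in both directions. Spermatid markers were higher at day 27 for 16 of 16 measured, with a summed corrected intensity of 187705 to 192922 at day 27 and 1891.42 to 1983.12 at day 3, where Prm3, Acrv1, Akap4, Gapdhs, Pgk2, Cabs1 and Crisp2 were not above background. Peritubular myoid markers were lower for 7 of 8 (sums of 17900.6 to 19153.5 at day 27 and 50449.4 to 50839.3 at day 3), and interstitial markers for 10 of 10 (9903.1 to 10154.6 and 102211 to 106239). Sertoli markers were lower for 10 of 13 and endothelial markers for 8 of 12. The part of these shifts in the fall of the chains was not tested.

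**Figure D2:**
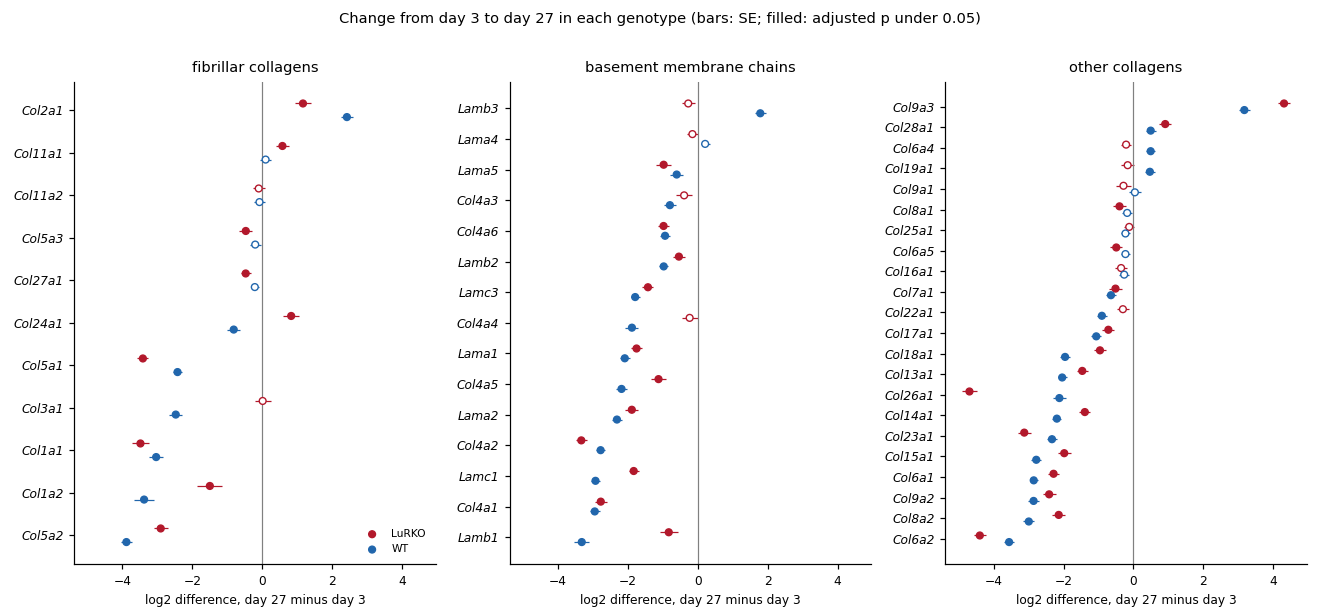
Log2 difference of day 27 minus day 3 (horizontal axes) for each of the 48 chains by type, LuRKO in red above WT in blue, with bars for the standard error and filled points for an adjusted p under 0.05. By the brightest probe, which stands for each gene, Col3a1 lay at 0.01 in LuRKO and -2.48 in WT. Lamb1 lay at -0.83 in LuRKO and -3.32 in WT.

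Up to day 13 the genotypes differed in few chains. At day 3, 1 chain was higher and 3 lower in LuRKO testes (8.15% of all genes called, 2.88% higher and 5.27% lower). At day 8 the fit called 0 chains, with 4 at an unadjusted p under 0.05 (0.046% of all genes called). At day 13 it called 1 higher and 1 lower (1.73% of all genes called). The day 3 chains were Col9a3, with 9.65 and 9.65 in LuRKO against 10.36 and 11.00 in WT (-1.03 ± 0.15), Lamb1 (-1.02 ± 0.21), Col3a1 (-0.70 ± 0.19) and Col6a2 (0.48 ± 0.13). Without LuRKO replicate B, 2 chains were called at day 3, and Lamb1 was at -0.68 (adjusted p = 0.0935), Col3a1 at -0.35 (adjusted p = 0.348) and Col6a2 at 0.52 (adjusted p = 0.0673). The other Col3a1 probe was at 0.19 in the same comparison, and with the mean of its probes Col3a1 was at -0.26 (adjusted p = 0.34). At day 13 Col8a1, a short chain of vessel walls, was higher (0.62 ± 0.14) and Lamb2 lower (-0.54 ± 0.14), and leaving out any 1 array of that age ended both calls.

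At day 19, the age at which testosterone was injected in the other groups, 6 chains were higher and 6 lower in LuRKO testes, where 23.1% of all genes were called, 11.9% higher and 11.2% lower. Col18a1, the precursor of endostatin, was the chain with the largest difference, with 13.35 and 13.18 in LuRKO and 12.61 and 12.36 in WT. LuRKO was 1.72-fold higher (0.78 ± 0.15, adjusted p = 0.000411), and its other probes were at 0.25 and 0.04. Lama1 had 10.43 and 10.23 in LuRKO and 9.76 and 9.75 in WT (0.57 ± 0.14). Lamc1 had 9.93 and 9.81 in LuRKO and 9.46 and 9.51 in WT (0.39 ± 0.12). These groups did not overlap. Col14a1, a fibril-associated chain, was higher by 0.58 ± 0.13, though its other probe was at 0.14. Col13a1, a transmembrane chain below background in WT, was at least 1.03-fold higher. Col24a1 was higher by 0.57 ± 0.19, with 9.11 and 8.35 in LuRKO and 8.05 and 8.27 in WT, and without the LuRKO array at 9.11 the difference was 0.19 (adjusted p = 0.549).
Among the 6 lower chains, Lama2 had 8.58 and 8.90 in LuRKO and 9.30 and 9.55 in WT, 1.61-fold lower (-0.69 ± 0.15, adjusted p = 0.00194). Col4a5 had 9.86 and 9.38 in LuRKO and 10.19 and 10.16 in WT (-0.56 ± 0.17). Col4a3 had 8.29 and 8.91 in LuRKO and 9.27 and 8.94 in WT (-0.50 ± 0.18). The 2 Col4a3 groups came close to each other, and without the LuRKO array at 8.29 the difference was -0.19 (adjusted p = 0.559). Col16a1 was lower by -0.56 ± 0.14, Col2a1 by -0.52 ± 0.18 with all 3 probes below 0, and Col6a5, below background in LuRKO, was at least 1.12-fold lower. Leaving out 1 array ended the call for Lamc1, Lama1, Lama2, Col2a1, Col4a5, Col6a5 and Col16a1 at least once, while Col18a1, Col13a1 and Col14a1 were called without any 1 array of that age. The count fell to 7 chains without LuRKO replicate A and to 7 without WT replicate A. The main structural pair of the fibres showed no call: Col1a1 had 10.16 and 10.24 in LuRKO and 10.77 and 10.58 in WT (-0.48 ± 0.21), and Col1a2 11.55 and 10.37 in LuRKO and 11.13 and 10.89 in WT (-0.05 ± 0.29). Col4a1 (-0.23 ± 0.14) and Col4a2 (-0.12 ± 0.13) were not called either.

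Col18a1 has 2 annotated starts on the minus strand of chromosome 10, 52825 bases apart, and the windows before both are shown because it had the largest difference of all chains between genotypes at day 19 and, as described further on, at 48 h after testosterone against vehicle. The upstream start's window is chr10:77166531-77166780 and the downstream start's chr10:77113706-77113955.
Col18a1, upstream start: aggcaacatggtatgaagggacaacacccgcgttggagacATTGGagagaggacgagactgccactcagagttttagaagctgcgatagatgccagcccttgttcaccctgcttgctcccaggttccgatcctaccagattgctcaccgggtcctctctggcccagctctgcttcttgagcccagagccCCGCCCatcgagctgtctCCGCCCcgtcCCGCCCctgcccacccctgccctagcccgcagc
Col18a1, downstream start: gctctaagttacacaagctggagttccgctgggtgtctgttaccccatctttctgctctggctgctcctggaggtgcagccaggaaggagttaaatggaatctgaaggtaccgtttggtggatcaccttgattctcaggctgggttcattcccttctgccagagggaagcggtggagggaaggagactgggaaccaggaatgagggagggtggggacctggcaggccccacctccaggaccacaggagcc
The upstream window holds 3 GGGCGG and 1 CCAAT, all read on the other strand, and the downstream window holds none of the 4 motifs. Which start the array's probes report on was not determined.

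By day 27 the genotypes were far apart. In the single LuRKO array 20 chains were higher and 7 lower than in the 2 WT arrays, where 54.9% of all genes were called, 34.1% higher and 20.8% lower. The median chain differed by 0.27 and the median of all genes by 0.14. The spread of LuRKO testes at this age was not measured, and the fit lends it the spread of the other groups. In LuRKO testes 9 of 15 basement membrane chains were higher and 1 lower, 4 of 11 fibrillar collagens higher and 2 lower, and 7 of 22 other collagens higher and 4 lower.
Col24a1, a fibrillar collagen known from bone, had 9.06 in LuRKO and 7.04 and 7.11 in WT, 3.97-fold higher (1.99 ± 0.23, adjusted p = 1.96e-08). Its second bright probe was at 1.91. Col3a1 had 12.98 in LuRKO and 11.26 and 11.14 in WT (1.78 ± 0.23), and its other probe was at 0.97. Col1a2 had 10.76 in LuRKO and 9.72 and 9.74 in WT (1.03 ± 0.35), whereas Col1a1 had 9.47 in LuRKO, inside the WT arrays at 10.08 and 9.43 (-0.29 ± 0.25). Col5a2 was higher (0.89 ± 0.20) and Col5a1 lower (-0.78 ± 0.15), so the chains of type V collagen differed in opposite directions. Col2a1 had 7.86 in LuRKO and 8.86 and 8.60 in WT (-0.88 ± 0.22).
In the basement membrane, Lamb1 had 9.10 in LuRKO and 7.40 and 7.86 in WT, 2.77-fold higher (1.47 ± 0.26). Lamc1 had 9.61 in LuRKO and 8.55 and 8.75 in WT (0.96 ± 0.14), with its other probe at 0.82. Lama1 had 9.55 in LuRKO and 8.77 and 9.10 in WT (0.62 ± 0.17). All 3 chains of the laminin Lama1, Lamb1 and Lamc1 form were thus above both WT arrays. Lama2 had 9.07 in LuRKO and 8.29 and 8.54 in WT (0.66 ± 0.19), Lamb2 9.81 in LuRKO and 8.97 and 9.33 in WT (0.66 ± 0.17), and Lamc3 9.70 in LuRKO and 9.12 and 9.12 in WT (0.58 ± 0.16). With the mean of its probes Lamc3 was at 0.13 (adjusted p = 0.442). Col4a1 had 11.48 in LuRKO and 10.93 and 10.85 in WT (0.59 ± 0.17), while Col4a2, across the shared start region, had 9.63 in LuRKO and 9.93 and 9.64 in WT (-0.16 ± 0.16). Col4a4 was higher by 1.08 ± 0.23 and Col4a5 by 0.98 ± 0.21. Col4a3 (0.31 ± 0.22) and Lama5 (0.11 ± 0.22) were not called. Lamb3 was the chain of this type that differed most, with 6.86 in LuRKO against 8.85 and 8.45 in WT, 3.47-fold lower (-1.79 ± 0.18, adjusted p = 1.99e-09).
Among other collagens Col18a1 had 12.57 in LuRKO and 11.11 and 11.36 in WT, 2.53-fold higher (1.34 ± 0.18), and Col15a1, the other multiplexin, was higher by 1.10 ± 0.18. Col6a1 had 12.20 in LuRKO and 11.34 and 11.20 in WT (0.93 ± 0.15), whereas its partner Col6a2 had 7.90 in LuRKO and 8.37 and 8.15 in WT and was not called (-0.36 ± 0.16, adjusted p = 0.068). Col8a2 and Col13a1 were higher. Col14a1 was higher by 0.81 ± 0.15, but its other probe was at -0.41 and the mean of its probes at 0.20 (adjusted p = 0.148). Col22a1 was higher by 0.62 ± 0.18, and by 0.35 without WT replicate B (adjusted p = 0.12). Col26a1, a chain known from the developing testis and ovary, was not above background in LuRKO, with 6.41 against 8.63 and 8.80 in WT, and was at least 4.26-fold lower (adjusted p = 4.54e-10). Its dimmer probe was at -0.14. Col6a4, Col23a1 and Col19a1 were lower as well.

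**Figure D3:**
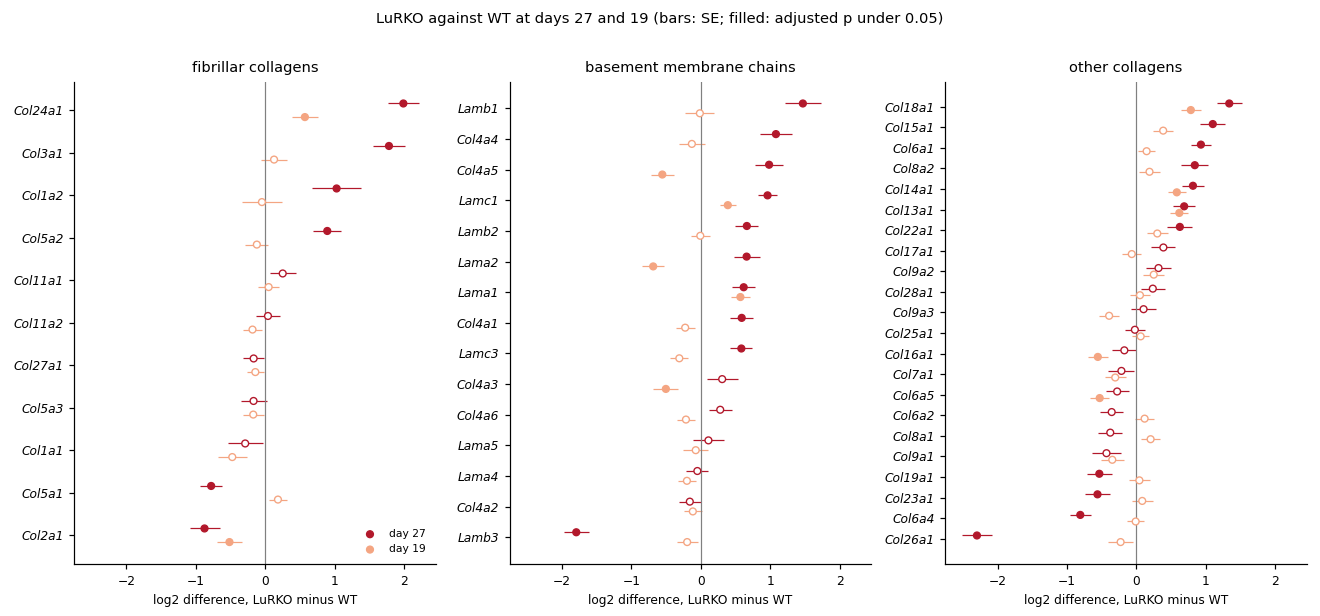
Log2 difference of LuRKO minus WT (horizontal axes) for the 48 chains by type, at day 27 in dark red (1 LuRKO and 2 WT arrays) above day 19 in orange (2 and 2 arrays), with bars for the standard error and filled points for an adjusted p under 0.05. Col24a1, Lamb1 and Col18a1 stand at the high end at day 27 and Col2a1, Lamb3 and Col26a1 at the low end.

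The change over age itself differed between genotypes for 25 chains, 16 with a higher and 9 with a lower value in LuRKO than in WT (47.1% of all genes called). Between day 27 and day 3 Lamb1 differed by -0.83 ± 0.26 in LuRKO and -3.32 ± 0.21 in WT, a gap of 2.49 ± 0.33. Col3a1 differed by 0.01 ± 0.23 in LuRKO and -2.48 ± 0.19 in WT. The other Col3a1 probe differed by -2.39 in WT. Between genotypes that probe was at 0.19 at day 3 and 0.97 at day 27, so its gap was smaller. Col26a1, not above background in LuRKO at day 27, was at least 22.4-fold lower there and differed by -2.12 ± 0.18 in WT. The dimmer Col26a1 probe differed by only -0.21 in WT. Lamb3 differed by -0.28 ± 0.18 in LuRKO and 1.79 ± 0.15 in WT. Averaged over the 5 ages, 12 chains were higher and 9 lower in LuRKO (45.1% of all genes called), led by Col24a1 (0.61 ± 0.09), Col18a1 (0.51 ± 0.07), Col15a1 (0.42 ± 0.07) and Col14a1 (0.42 ± 0.06) on the high side and Col26a1 (-0.58 ± 0.08) on the low side. Lama1 (0.34 ± 0.06) led the basement membrane chains. Day 27, with 1 LuRKO array, weighs on these averages. Col26a1 was at 0.28 at day 3 and a fitted -2.30 at day 27, and Col24a1 at 0.35 and 1.99. The other probes of Col14a1 and Col26a1 averaged only 0.02 and 0.04 over the ages. Those of Col18a1 averaged 0.32 and 0.25, and the second bright Col24a1 probe 0.67.

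Cell type markers differed at the same age. At day 27 spermatid markers were lower in LuRKO for 15 of 16, with a median of -4.38 and summed corrected intensities of 19503.3 in LuRKO and 187705 to 192922 in WT; Tnp2 was not above background in LuRKO. Sertoli markers were higher for 9 of 13 (100262 in LuRKO, 47032.5 to 48282.3 in WT), interstitial markers for 9 of 10 (28147.9 in LuRKO, 9903.1 to 10154.6 in WT) and endothelial markers for 5 of 12, with 2 lower. Of 8 peritubular myoid markers 4 were higher and 2 lower in LuRKO. Their summed intensity was 15883.9 in LuRKO and 17900.6 to 19153.5 in WT, although more markers were higher than lower. Actg2 weighed on this sum, with 9.04 in LuRKO and a mean of 12.53 in WT. Acta2, the brightest of the list, had 13.59 in LuRKO and a mean of 13.26 in WT. At day 19 spermatid markers were lower for 9 of 16 and higher for 1 (10553.5 to 11861.3 in LuRKO, 16728.8 to 18152.8 in WT), and interstitial markers were higher for 5 of 10 and Sertoli markers for 4 of 13, with 1 lower. Peritubular myoid markers were lower for 2 of 8. The part of these shifts in the chain differences was not tested.
Partner genes of the chains were called in both directions, beside 34.1% of all genes higher and 20.8% lower. At day 27, 10 of 24 folding and crosslinking genes were higher and 3 lower, with the collagen glycosyltransferase Colgalt1 at 1.38 ± 0.16 and the procollagen protease enhancer Pcolce at -1.03 ± 0.14. Of 16 degradation genes 6 were higher and 0 lower (Mmp11 1.86 ± 0.16, the inhibitor Timp3 1.56 ± 0.15), and of 11 basement membrane partners 3 were higher (Agrn 0.94 ± 0.16, Nid2 1.20 ± 0.22). Of 14 receptors 6 were higher and 2 lower, with the collagen-binding integrin chain Itga1 at -1.51 ± 0.21 and the shared chain Itgb1 at 0.87 ± 0.14.

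The testosterone results rest on 2 control groups, the vehicle-injected LuRKO testes and the untreated ones of day 19, and these differed in 10 chains, 4 higher and 6 lower in vehicle testes (14% of all genes called). Col3a1 had 10.70 and 10.59 in vehicle testes and 12.57 and 12.07 in untreated testes, 3.19-fold lower (-1.67 ± 0.19, adjusted p = 2.19e-07). Col1a2 had 9.49 and 9.25 in vehicle and 11.55 and 10.37 in untreated testes (-1.59 ± 0.29). Lamb1 had 7.73 and 7.61 in vehicle and 8.75 and 8.27 in untreated testes (-0.84 ± 0.21). In the other direction, Lama2 had 9.53 and 9.36 in vehicle and 8.58 and 8.90 in untreated testes (0.70 ± 0.15), and Col4a3 9.34 and 9.28 in vehicle and 8.29 and 8.91 in untreated testes (0.71 ± 0.18). Col24a1, Col4a4 and Col9a3 were lower and Col4a2 and Lamc3 higher. The second Col3a1 probe was at -0.32 and the other Col4a4 probes at 0.06 and 0.00, so the offset was not shared by all probes of these genes. Col18a1 (-0.15 ± 0.15), Lama1 (0.02 ± 0.14), Lamc1 (0.03 ± 0.12) and Col2a1 (0.06 ± 0.18) were not called between the controls.

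The question of the time course was how the LuRKO testis responds to testosterone. Against untreated testes, 10 chains were called at 2 h (4 higher, 6 lower, 20.9% of all genes called), 16 at 4 h (10 and 6, 27.3%), 12 at 8 h (6 and 6, 20.8%) and 12 at 12 h (3 and 9, 16.5%). At 24 h, with 1 array, 2 were lower and 0 higher (9.8%, 5.09% higher and 4.72% lower), and at 48 h 6 were higher and 12 lower (31.8%). Against vehicle, with other arrays as the control, the counts were 0 at 2 h (6 at an unadjusted p under 0.05, 1.76% of all genes called), 4 at 4 h (9.81%), 0 at 8 h (6 unadjusted, 3.23%), 1 at 12 h (1.91%), 5 at 24 h (4.81%) and 10 at 48 h (21%), which became 6 without 48 h replicate A, 5 without 48 h replicate B and 6 without vehicle replicate B. The 4 chains at 4 h were Col22a1 and Col24a1, higher, and Col9a3 and Lama4, lower, and the chain at 12 h was Col8a1 (-0.52 ± 0.14). Lama4 had 6.30 and 6.41 at 4 h, below background, and 6.69 and 6.97 in vehicle testes, too near background to be read.
Col3a1 shows how the control decides these calls. At 2 h it had 10.41 and 10.09, which is -2.07 ± 0.19 against untreated testes, and at 48 h 10.66 and 10.71, which is -1.63 ± 0.19 against untreated and 0.04 ± 0.19 against vehicle testes. Col1a2 at 48 h was at -1.22 ± 0.29 against untreated and 0.38 ± 0.29 against vehicle, and Lamb1 at -1.11 ± 0.21 and -0.28 ± 0.21. Lama2 at 48 h was 0.40 ± 0.15 against untreated and -0.31 ± 0.15 against vehicle, with opposite signs. Col1a2 lay between 8.47 and 10.07 in all injected testes, vehicle included, below both untreated day 19 arrays.

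At 48 h a smaller set of chains differed against both controls. Col18a1 had 12.19 and 12.03 at 48 h, against 13.17 and 13.07 in vehicle and 13.35 and 13.18 in untreated testes. The 48 h arrays lay below all arrays of the other LuRKO groups of the time course, and the difference was -1.01 ± 0.15 against vehicle (2.01-fold lower, adjusted p = 1.55e-05), -1.15 ± 0.15 against untreated and -1.03 ± 0.15 against the 2 h arrays. All 3 Col18a1 probes were lower against vehicle, by -1.01, -1.03 and -0.51. Its values over time were 13.10 and 13.19 at 2 h, 13.35 and 13.31 at 4 h, 13.29 and 13.08 at 8 h, 12.94 and 12.80 at 12 h and 12.67 at 24 h.
Lamc1 had 9.36 and 9.32 at 48 h, against 9.90 and 9.90 in vehicle testes (-0.56 ± 0.12, adjusted p = 0.000873) and 9.93 and 9.81 in untreated testes (-0.53 ± 0.12), and its second probe was at -0.49 against vehicle. Lama1 had 9.81 and 9.92 at 48 h, against 10.34 and 10.36 in vehicle (-0.48 ± 0.14) and 10.43 and 10.23 in untreated testes (-0.46 ± 0.14). The laminin alpha and gamma chains that were higher in LuRKO at day 19 were thus both lower at 48 h, without overlap with either control. The Lama1 call against vehicle ended without 48 h replicate A (adjusted p = 0.107) or vehicle replicate B (adjusted p = 0.0873), and against untreated testes without 48 h replicate A (adjusted p = 0.0945) or untreated replicate A (adjusted p = 0.125). Col17a1, Col6a5, Lamb3, Col14a1 and Col26a1, described next, also lost their calls against vehicle without 1 array, while Col18a1, Lamc1, Col13a1 and Col2a1 kept theirs without any 1 array. Col17a1, a transmembrane chain of cell anchors, was lower against vehicle (-0.44 ± 0.14) and untreated testes (-0.36 ± 0.14), with other probes at -0.35 and 0.06 against vehicle. Col13a1 was at 5.88 and 5.90 at 48 h, below background, with 6.53 and 6.63 in vehicle testes around the threshold, so no fold is given.
Col2a1 rose. It had 8.78 and 9.03 at 48 h, against 8.07 and 7.96 in vehicle testes (0.89 ± 0.18, 1.85-fold, adjusted p = 0.000641) and 7.84 and 8.07 in untreated testes (0.95 ± 0.18), and its other probes were at 0.83 and 0.40 against vehicle. Col6a5, below background in both controls, was at least 1.16-fold higher against each. Against vehicle alone Lamb3 was at least 1.30-fold higher, and Col14a1 (-0.37 ± 0.13) and Col26a1 (-0.59 ± 0.18) were lower, though their other probes were at 0.16 and -0.09. Without vehicle replicate A Col26a1 was at -0.19 (adjusted p = 0.511), and without vehicle replicate B Col14a1 was at -0.20 (adjusted p = 0.459). The vehicle testes were taken 24 h after injection and the untreated ones on day 19, so age and treatment cannot be told apart at 48 h, and Col18a1 in untreated LuRKO testes was itself 12.57 at day 27 against a mean of 13.27 at day 19.

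**Figure D4:**
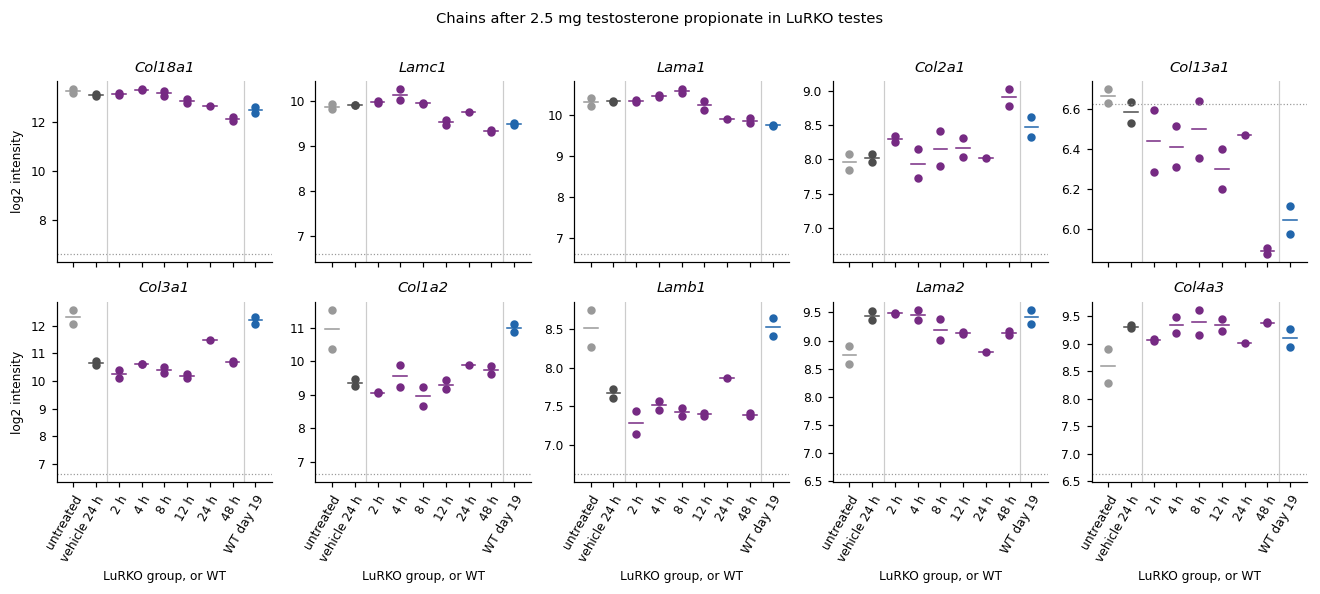
Log2 intensity (vertical axes, each with its own range) of 10 chains in LuRKO testes untreated at day 19 (light grey), 24 h after vehicle (dark grey) and 2 to 48 h after 2.5 mg (purple), with WT testes of day 19 (blue) at the right; points are arrays, bars group means, and the dotted line is the background threshold. Col18a1, Lamc1 and Lama1 were lowest among LuRKO groups at 48 h and Col2a1 highest, while Col3a1, Col1a2 and Lamb1 lay below the untreated group in vehicle and treated testes alike.

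Day 19 genotype and 48 h against vehicle share no arrays, so their calls can be set side by side. Of the 12 chains called between LuRKO and WT at day 19, 7 (58.3%) were also called at 48 h against vehicle, which is 70% of the 10 chains called there, and all 7 had the opposite sign. Over all genes 1552 were called in both comparisons, 44.2% of the day 19 calls and 48.5% of the 48 h calls, and 1504 of them had opposite signs. The 7 chains were Col13a1, Col14a1, Col18a1, Lama1 and Lamc1, higher in LuRKO and lower after testosterone, and Col2a1 and Col6a5, lower in LuRKO and higher after testosterone. Compared directly, 48 h LuRKO testes and WT testes of day 19 differed by -0.37 ± 0.15 for Col18a1, 0.11 ± 0.14 for Lama1, -0.14 ± 0.12 for Lamc1 and 0.43 ± 0.18 for Col2a1, none of them called, at adjusted p between 0.0964 and 0.649. Missing the threshold does not show that the levels were equal. In that comparison 1 chain was higher and 9 lower in the treated LuRKO testes (14.3% of all genes called, 6.74% higher and 7.52% lower). Col3a1 (-1.50 ± 0.19), Col1a2 (-1.27 ± 0.29) and Lamb1 (-1.13 ± 0.21) were among the lower ones. As given above, these chains were also lower in vehicle than in untreated LuRKO testes.

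Cell type markers also differed at 48 h against vehicle. Of 13 Sertoli markers 6 were lower and 0 higher, with summed corrected intensities of 80364.3 to 81846.4 at 48 h and 95820.9 to 98040.1 in vehicle testes. Spermatid markers were higher for 13 of 16. Peritubular myoid markers were lower for 1 of 8 against vehicle (24723.1 to 27334.1 at 48 h, 27054.5 to 30033 in vehicle testes). Between vehicle and untreated testes 3 of 8 peritubular myoid markers were higher. The part of these shifts was not tested. Around the chains, beside 10.6% of all genes higher and 10.4% lower, 3 of 11 basement membrane partners were lower against vehicle and 0 higher, namely Hspg2 (-0.47 ± 0.12), Agrn (-0.42 ± 0.13) and Nid2 (-0.55 ± 0.18). Of 14 receptors 2 were lower, Dag1 (-0.68 ± 0.14) and the integrin chain Itga11 (-0.52 ± 0.15), and Itga1 was higher (0.48 ± 0.17). Of 24 folding genes 2 were higher, Serpinh1 (0.77 ± 0.14) and the prolyl hydroxylase subunit P4ha2 (0.70 ± 0.14), and P3h1 was lower.

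The dose series set 250 ng, 2.5 µg and 25 µg against vehicle at 24 h. The 2.5 mg array beside them is the 24 h array of the time course. At 2.5 mg, dose and series therefore cannot be told apart. Against vehicle, limma called 0 chains at 250 ng (6 at an unadjusted p under 0.05, 0.0592% of all genes called), 0 at 2.5 µg (3 unadjusted, 0.0526%) and 0 at 25 µg (8 unadjusted, 0.454%). At 2.5 mg, with 1 array, 4 were higher and 1 lower (4.81%). Col5a2 had 7.18 and 7.41 in vehicle testes, 7.20 and 7.16 at 250 ng, 7.19 and 7.30 at 2.5 µg, 7.69 and 7.55 at 25 µg and 8.05 at 2.5 mg (0.75 ± 0.20, adjusted p = 0.028). Col3a1 had 10.70 and 10.59 in vehicle testes, 10.85 and 10.89 at 250 ng, 10.43 and 10.74 at 2.5 µg, 10.92 and 10.75 at 25 µg and 11.49 at 2.5 mg (0.84 ± 0.23). Col4a4 (0.81 ± 0.23) and Col8a2 (0.70 ± 0.19) were the other higher chains, and Lama2, with 8.80 at 2.5 mg and 9.53 and 9.36 in vehicle testes, was lower (-0.64 ± 0.19). Col4a4 had 11.20 in the array after 2.5 mg, between the untreated day 19 arrays at 11.38 and 10.96. None of these 5 calls held in all settings tried, and 1 chain was called without vehicle replicate A and 3 without replicate B. Col18a1 had 13.20 and 12.90 at 250 ng, 12.96 and 12.67 at 2.5 µg, 12.99 and 13.00 at 25 µg and 12.67 at 2.5 mg, where it was at -0.45 ± 0.18 and not called. The smallest adjusted p at 25 µg was that of Col13a1 (-0.49 ± 0.13, adjusted p = 0.0775), near background.

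**Figure D5:**
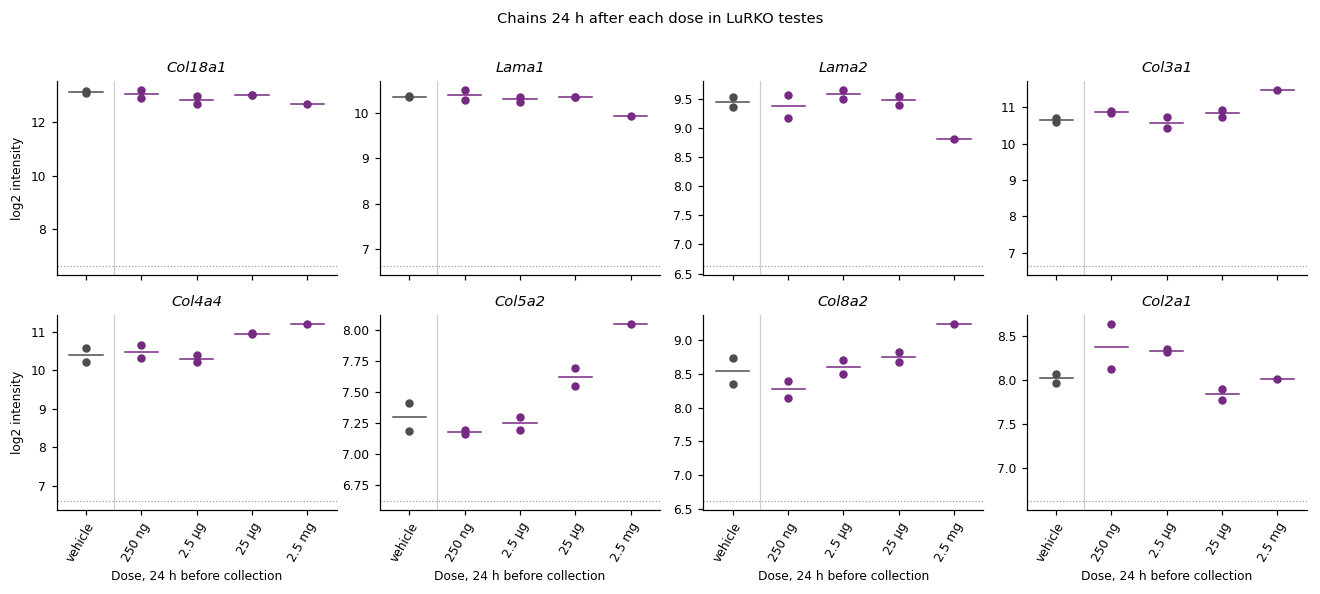
Log2 intensity (vertical axes, each with its own range) of 8 chains in LuRKO testes 24 h after vehicle (grey) and after 250 ng, 2.5 µg, 25 µg and 2.5 mg of testosterone propionate (purple), with points for arrays, bars for group means and the background threshold dotted. Col5a2, Col8a2, Col4a4 and Col3a1 were highest, and Lama2 lowest, in the single array after 2.5 mg, which comes from the time course.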

How the data were processed

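Testis RNA of LuRKO and WT mice was measured on 38 Illumina bead arrays in 3 experimental series. The intensities used are the deposited values of the authors' series table, linear and quantile-normalized: all 38 arrays share 1 maximum and their medians lie between 108.1 and 108.3. BeadStudio is named in the submitters' processing notes with no version given. Another deposited table has 76 value columns whose names match no sample label, and it was not used.

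Probes were named through the platform annotation: of 45281 probes 34885 had 1 gene symbol, 18 several and 10378 none. Intensities were corrected with normexp (offset 50) in limma 3.58.1 (R 4.3.3) and taken to log2. The brightest probe stood for a gene, and genes above 102 on at least 2 arrays were kept. A fit of 1 mean per group over all 38 arrays, with eBayes moderation (18 residual and 10.4 prior degrees of freedom) and Benjamini-Hochberg adjustment over 15201 genes, gave every adjusted p, two-sided. With a group not above background, "at least" folds set the brighter mean against the lowest signal above background. The number of arrays limits the precision, and since the labels do not say how animals were assigned to arrays, p-values measure the spread between these arrays. The fit was tested on simulated data drawn with its own estimated spread, so a misjudged spread could not show. For the day 19 genotype comparison it called 22 of 67 genes with a true log2 difference of 0.5. It called 66 of 67 genes with a difference of 1, and 5 of 15001 genes with none. A missing call at differences near 0.5 thus says little. Replicate correlations over genes lay between 0.991 and 0.997.

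The chains, the marker lists, the lists of partner genes and the rule for genes given in every array (the leading called chain of each type in each comparison, and 15 fixed chains) were chosen with earlier results of these data known. Levels of the hormone receptor genes themselves are not reported here. Promoter windows come from RefSeq, GRCm38.p6, and Col14a1, Col1a1, Col22a1, Col26a1, Col2a1, Col4a3, Col5a2, Col9a3, Lama1, Lama4, Lamc1 and Lamc3 had no entry in the table used. Alternatives covered background correction, offset, scaling, probe choice, dim-probe filters, replicate blocks, arrays left out, arrays of the same series and the control group. Here the same series means either the developmental arrays or all injected arrays with untreated day 19 LuRKO. The latter pool the time course, the doses and the day 19 controls.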

Additional observations from a re-analysis of the deposited data

Results flagged for a closer look

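The change between day 27 and day 3 differed between LuRKO and WT testes for 25 chains by the interaction term of the limma fit, with 1 LuRKO array at day 27. In 16 the LuRKO change lay above the WT change. Among fibrillar collagens the gap, the LuRKO change minus the WT change in log2, was 2.49 for Col3a1, 1.88 for Col1a2, 1.64 for Col24a1 and 0.98 for Col5a2. The other Col3a1 probe was at 0.19 between genotypes at day 3 and 0.97 at day 27, a smaller gap. The second bright Col24a1 probe was at 0.27 and 1.91, a similar gap. Among basement membrane chains the gap was 2.49 for Lamb1, 1.65 for Col4a4, 1.09 for Lamc1 and 1.06 for Col4a5. The other Col4a4 probes were at 0.31 and 0.29 between genotypes at day 3 and 0.30 and 0.92 at day 27. The other Col4a5 probe was at 0.48 and 0.51 at these ages, and that of Lamc1 at 0.20 and 0.82. On these probes each gap was smaller. Among other collagens the gap was 1.14 for Col9a3, 1.00 for Col18a1, 0.86 for Col8a2, 0.80 for Col14a1, 0.80 for Col15a1, 0.60 for Col22a1, 0.58 for Col13a1 and 0.57 for Col6a1. The other Col14a1 probe was at -0.05 between genotypes at day 3 and -0.41 at day 27, a gap of opposite sign. The second bright Col6a1 probe was at -0.0034 and 0.94, a gap of the same sign.

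In 9 chains the LuRKO change lay below the WT change. Col26a1 had a gap of -2.57, though its dimmer probe was at -0.14 between genotypes at day 27. Lamb3 had -2.06, Col2a1 -1.26, Col5a1 -0.99, Col6a2 -0.84, Col23a1 -0.79, Col6a4 -0.70, Col19a1 -0.64 and Col4a2 -0.55. The fitted values of Col26a1, Col2a1, Col23a1, Col19a1 and Col13a1 include a group below background and are no bounds.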

How the results depend on the processing

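On single chains 1034 alternative values were computed for 84 results: 897 kept their direction and call, 122 kept the direction without the call and 15 reversed. The control group moved most. Of the 48 h results set against untreated testes, those with vehicle as the control were 0.38 for Col1a2, 0.0398 for Col3a1, -0.26 for Col4a2, 0.13 for Col4a4, -0.31 for Lama2 and -0.12 for Lamc3, each with the sign turned, and those with the 2 h arrays as the control, an alternative chosen after seeing the data, were 0.69 for Col1a2, 0.44 for Col3a1, -0.19 for Col4a2, 0.29 for Col4a4, -0.35 for Lama2 and 0.10 for Lamb1. With the mean of its probes Col4a4 was at 0.0248. After 2.5 mg at 24 h, Col3a1 was at -0.83 and Lama2 at 0.0637 with untreated testes as the control. Counts of called chains with vehicle as the control were 0 at 2 h, 4 at 4 h, 0 at 8 h, 1 at 12 h, 5 at 24 h and 10 at 48 h, and with the 2 h arrays 0, 0, 4, 4 and 11 at 4, 8, 12, 24 and 48 h. With untreated testes as the control they were 6, 12, 12 and 2 at 250 ng, 2.5 µg, 25 µg and 2.5 mg. With an offset of 16 the counts at 25 µg and 2.5 mg were 1 and 1, and with arrays of the same series 2.5 mg had 3. Averaging the probes of a gene gave 7 at day 3, and day 13 had 1 without WT day 3 replicate A and LuRKO day 13 replicate B, left out after seeing the data. The cause was not tested.

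Leaving out 1 array at a time gave 2 to 6 chains at day 3, 0 at day 8, 0 at day 13, 7 to 10 at day 19, 27 to 28 at day 27 and 17 to 23 averaged over ages. Day 27 against day 3 gave 36 to 39 in WT and 32 to 33 in LuRKO, the WT steps 10 to 13, 19 to 21, 29 to 31 and 27 to 30, and the interaction 22 to 25. Against untreated testes the range was 7 to 11 at 2 h, 7 to 14 at 4 h, 6 to 11 at 8 h, 4 to 12 at 12 h, 0 to 7 at 24 h and 9 to 18 at 48 h, and against vehicle 0 to 1 at 250 ng, 2.5 µg and 25 µg, 1 to 3 at 2.5 mg and 5 to 10 at 48 h. Untreated LuRKO day 19 replicate A took the counts at 4, 8, 12, 24 and 48 h to 9, 6, 7, 0 and 9, and replicate B of that group took 24 h to 7. The arrays 4 h B, 8 h A, 12 h B and 48 h A took their times to 7, 6, 4 and 11, and vehicle B took the 3 lower doses to 1 each. At day 27, Col14a1 and Lamc3 lost the call with the mean of their probes. Only groups of 2 arrays had an array left out. The single arrays of LuRKO day 27 and of 24 h after 2.5 mg were in every such fit. The ranges that involve these arrays do not show how far the counts depend on them.

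Replicate letters A and B did not pair the arrays, with correlations of deviations between -0.19 and 0.12 over 17 pairs of groups. With the letter as a replicate block 5 chains were called at day 3, 12 at day 19, 29 at day 27, 38 in WT over age and 10 at 48 h against vehicle. Scaling moved no median over all genes by more than 0.1. The deposited arrays already had nearly equal medians, so scaling could change little. Dim chains such as Col19a1, Col5a3 and Lama4 lie too near background for a small difference to be read.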
